A study of Mus musculus with 13 samples.

Results

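The comparison described here set microglia of 5xFAD mice labelled as PKR knockout against microglia of wild type mice. It used 7 of the 13 libraries in the series, 4 from 5xFAD mice with PKR knockout and 3 from wild type mice, chosen by their titles. Expression was given as FPKM, fragments per kilobase of gene scaled to sequencing depth. A gene entered the test when its mean over all 13 libraries was at least 1 FPKM, which left 10817 of 19737 genes. The 5xFAD mouse carries human transgenes of familial Alzheimer's disease, mutant APP among them, driven by the Thy1 promoter of neurons and develops amyloid plaques. The wild type mice had received AAV PHP.eB-EGFP, an adeno-associated virus with a capsid that crosses into the brain. The knockout group is labelled 5xFAD with PKR KO and names no virus. A further 2 libraries from 5xFAD mice that received AAV PHP.eB-EGFP, with no PKR knockout in their labels, are given beside them. The series concerns circular RNA given by a viral vector to 5xFAD mice, and its remaining 4 libraries, from 5xFAD mice given a circular RNA vector, entered only the estimate of spread.

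PKR, encoded by Eif2ak2, is a kinase that is switched on by double-stranded RNA. Active PKR phosphorylates the initiation factor eIF2, which slows translation and lets the transcription factor ATF4 be made, and it also feeds into NF-kB and interferon signalling. Microglia are the resident macrophages of the brain. Near amyloid plaques they are known to lower homeostatic genes such as P2ry12 and Tmem119 and to raise a disease-associated program through the receptor TREM2, with genes of lysosomes, lipid transport and antigen presentation.

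Knockout and wild type groups differ in the 5xFAD transgenes, in PKR and in the named vector, and only the knockout libraries carry library names in the labels (Sample10 to Sample13). The parts of disease, knockout, vector and library preparation in any difference from wild type cannot be told apart. The labels do not say that the replicates came from separate animals, and p-values measure the spread between these libraries. Depth recovered from the steps between low FPKM values was 48500000 ± 1750000 fragments (SD, n = 3) in wild type and 64400000 ± 5860000 fragments (SD, n = 4) in the knockout, so that a gene of 2 kb at 1 FPKM rested on 94.5 to 140 fragments. The error from counting alone at that level was 8.45% to 10.3% of the value.

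Eif2ak2 (chr17:78852564-78882573, minus strand, in GRCm38, with gene bounds here and below from GENCODE M21) was at 5.17, 5.23 and 4.14 FPKM in the wild type libraries, 6.49 and 6.59 in 5xFAD EGFP and 3.35, 4.61, 3.31 and 4.16 in the knockout. The knockout values were lower on average but overlapped wild type, with a log2 change of -0.27 (SE 0.10, adjusted p = 0.0486) by limma. RNA of the gene was therefore present in every knockout library, and which exons the knockout removes is not given in the sources used here, so this check says little about the labels. The call was lost in 12 of 19 alternative analyses. App, the mouse counterpart of the APP transgene, did not pass the test, and Thy1 was at 0.990, 0.861 and 3.05 FPKM in wild type and 2.67, 1.89, 2.11 and 2.82 in the knockout. The labelled cell type was checked against its markers, and the summed level of 11 microglia genes, among them Cx3cr1, Sall1 and Csf1r, lay between 4968 and 5196 FPKM in the knockout libraries. T cell and natural killer cell markers summed to at most 1.37 FPKM in any of the 9 libraries shown here.

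Before the results, 2 libraries need naming. Wild type replicate 3 had a microglia marker sum of 3253 FPKM against 5092 and 5252 in the other wild type libraries, and an oligodendrocyte marker sum of 1631 FPKM against 409 and 368. Its correlation with the other wild type libraries over the tested genes was 0.941 and 0.927, against 0.989 between those. Knockout replicate 2 had almost no RNA of the Y-linked genes Ddx3y, Uty, Eif2s3y and Kdm5d, which the other 8 libraries shown here all expressed, Ddx3y at 7.06, 0.00550, 6.64 and 7.64 FPKM in the knockout. Without wild type replicate 3 the test called 1658 genes raised and 2126 lowered. Without knockout replicate 2 it called 1614 raised and 1490 lowered. Lowered genes numbered 1343 without wild type replicate 1, and those lowered at least 2-fold numbered 442 without wild type replicate 2, against 2099 and 256 with all libraries.

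Against wild type, 3997 of 10817 genes (37.0%) passed an adjusted p of 0.05 in PKR knockout 5xFAD microglia, 1898 raised (17.5%) and 2099 lowered (19.4%). A log2 change here is a difference of log2(FPKM + 1), which understates the change of genes near or below 1 FPKM. At least 2-fold on this scale, 394 genes were raised (3.64%) and 256 lowered (2.37%). The groups did not overlap in 4426 genes (40.9%), with 2143 higher in every knockout library (19.8%) and 2283 lower (21.1%). The median change of all genes was -0.05. In 5xFAD EGFP against the same wild type libraries, 827 genes were raised (7.65%) and 687 lowered (6.35%). That comparison shares its wild type libraries with the knockout comparison and rests on 2 disease libraries, so its values are given side by side and the counts are not compared. Rescaling every library to the same FPKM sum moved the median of all genes to -0.24 and turned the split to 1174 raised and 5421 lowered. The counts and median of most lists below are followed by their ranges over 19 alternative analyses, 12 with another setting and 7 that each leave out 1 library, of which a filter of at least 5 FPKM tested fewer members. For all genes these ranges were 1174 to 2374 raised, 585 to 5421 lowered and a median of -0.24 to 0.06 over the alternatives. The directions below are relative to the deposited scale, and a range that spans 0 marks a list whose median changes sign. Some genes, such as Apoe, Lpl, Itgax and Axl, belong to several lists, so the lists are not independent.

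**Figure D1:**
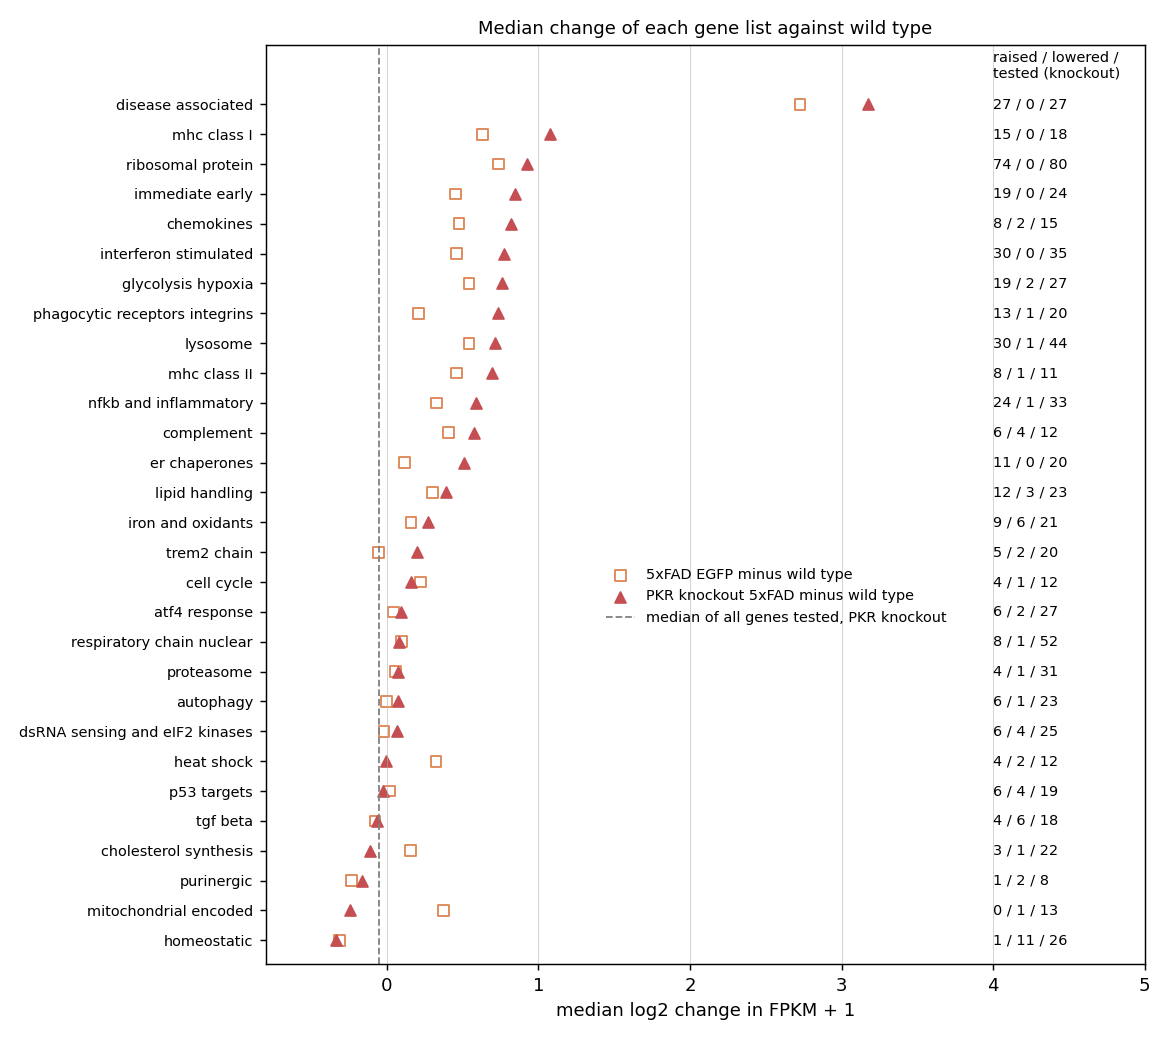
Median log2 change in FPKM + 1 of each pathway or gene family list, cell type markers left out (x axis), for PKR knockout 5xFAD minus wild type (triangles) and 5xFAD EGFP minus wild type (open squares), with the knockout counts of raised, lowered and tested genes at the right and the median of all genes tested as a dashed line at -0.05. The disease-associated list lies far to the right at 3.18, MHC class I (1.08), ribosomal protein (0.93) and immediate early genes (0.84) follow, and the homeostatic list is the lowest of the lists drawn at -0.34.

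Genes of the disease-associated program were raised throughout in the knockout: all 27 of its 27 members were raised, against 17.5% of all genes, with a median log2 change of 3.18 (27 raised, 0 lowered and a median of 2.98 to 3.34 over the alternatives). The same list had a median of 2.73 in 5xFAD EGFP, where all 27 members were raised too, against 7.65% of all genes there. The 10 largest rises of the whole table were 10 members of this list. The lists were chosen with earlier results of these data known, so these counts describe the list and do not test it. Cst7, an inhibitor of cysteine proteases (chr2:150570415-150578944, plus strand), was at 3.05, 3.00 and 2.97 FPKM in wild type, 490.5 and 487 in 5xFAD EGFP and 646, 686, 741 and 646 in the knockout. All 4 knockout libraries lay above both 5xFAD EGFP libraries and far above wild type, a 226-fold ratio of knockout to wild type means and a log2 change of 7.41 (SE 0.14, adjusted p = 1.00e-11). Spp1, the secreted phosphoprotein osteopontin, was at 3.31, 2.85 and 2.36 FPKM in wild type, 99.5 and 98.2 in 5xFAD EGFP and 189, 292, 405 and 204 in the knockout. All knockout libraries were above 5xFAD EGFP, replicate 3 highest, and the log2 change against wild type was 6.09 (SE 0.31, adjusted p = 4.75e-08). Gpnmb, a transmembrane glycoprotein of lysosome-rich macrophages, was at 0.107, 0.0998 and 0.147 FPKM in wild type, 26.6 and 31.6 in 5xFAD EGFP and 55.2, 78.7, 83.7 and 55.8 in the knockout. Every knockout library was above every 5xFAD EGFP library, and the log2 change against wild type was 5.93 (SE 0.18, adjusted p = 7.46e-10).

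Itgax, the integrin chain CD11c, was at 2.48, 2.77 and 1.81 FPKM in wild type and 109, 103, 120.5 and 109 in the knockout, a log2 change of 5.06 (SE 0.14). Lpl, which frees fatty acids from lipoproteins, was at 0.570, 0.518 and 0.556 FPKM in wild type, 22.8 and 24.3 in 5xFAD EGFP and 18.99, 25.6, 15.8 and 28.6 in the knockout. For Lpl the knockout libraries lay on both sides of 5xFAD EGFP, and the rise over wild type was 3.87 (SE 0.18). Csf1, a growth factor for macrophages, rose by 3.85 (SE 0.12) from 5.51 ± 0.674 FPKM (SD, n = 3) to 93.6 ± 13.97 (SD, n = 4). Apoe, the main lipid carrier of the brain and already abundant in wild type at 315, 304 and 353 FPKM, reached 3344, 3671, 2585 and 3561 in the knockout. That is a 10.2-fold ratio of means, with 5xFAD EGFP in between at 1684 and 2027. Mamdc2, Baiap2l2, Cox6a2 and Hpse (heparanase) were each under 1 FPKM in every wild type library and rose by 4.43, 4.42, 3.86 and 3.64. The smallest rise in the list, of the adhesion molecule Cadm1, was 0.92. Against 5xFAD EGFP, 26 of the 27 members had a higher mean in the knockout, against 51.8% of all genes, with a median difference of 0.35, but a single member, Dkk2, passed the test there.

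**Figure D2:**
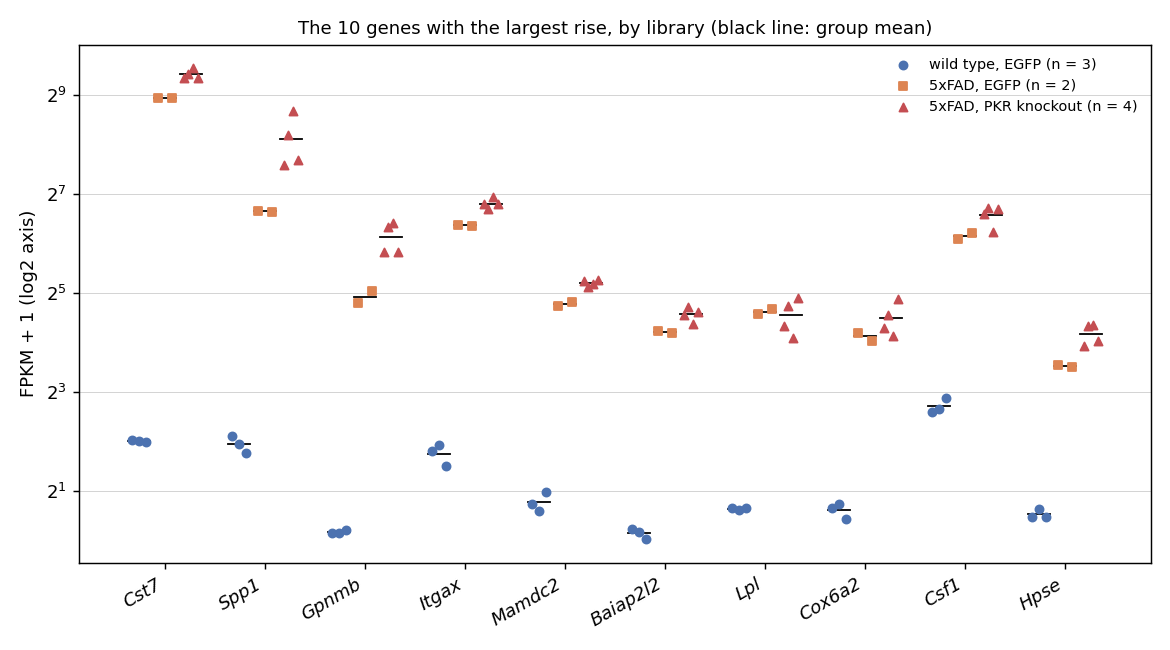
FPKM + 1 on a log2 axis for the 10 genes with the largest rise, in each wild type EGFP (n = 3), 5xFAD EGFP (n = 2) and PKR knockout 5xFAD (n = 4) library, with black lines at the group means of FPKM + 1. Wild type lies far below both disease groups for every gene, and the knockout libraries of Cst7, Spp1 and Gpnmb all lie above 5xFAD EGFP, while those of Lpl lie on both sides of it.

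Homeostatic genes were lowered in part. Of 26 members, 11 were lowered (42.3%, against 19.4% of all genes), 1 was raised (3.85%, against 17.5%) and 14 did not pass. The median was -0.34 (0 to 2 raised, 5 to 21 lowered and a median of -0.91 to -0.22 over the alternatives). Since this is bulk RNA, fewer cells of a type and less RNA per cell cannot be told apart. P2ry12, the ADP receptor that guides resting processes, was at 421, 389 and 248 FPKM in wild type, 244 and 241 in 5xFAD EGFP and 153, 179, 192 and 193 in the knockout. All 4 knockout libraries were below all wild type and 5xFAD EGFP libraries, and the change against wild type was -0.94 (SE 0.19, adjusted p = 0.00227). Ecscr, also known from endothelial cells, fell by 1.42 (SE 0.16), the most of the list, and Crybb1, a crystallin, fell by 1.20 (SE 0.32). Tmem119 fell from 398 ± 86.2 FPKM (SD, n = 3) to 232 ± 53.2 (SD, n = 4), and P2ry13, a second ADP receptor, from 155 ± 34.3 to 88.8 ± 11.8. Cst3, the protease inhibitor cystatin C, was at 2457, 2501 and 1571 FPKM in wild type and 2828, 2440.0, 2593 and 2557 in the knockout, and did not pass. Wild type replicate 3 was its lowest library, and the groups overlapped. The count depended on the wild type libraries and the scaling: 5, 7 and 17 members were lowered without wild type replicate 1, 2 and 3, 17 on rescaling and 21 with quantile normalization.

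TGF-beta signalling, which maintains the homeostatic state, had 4 of 18 members raised (22.2%, against 17.5% of all genes) and 6 lowered (33.3%, against 19.4%), with a median of -0.06 (2 to 6 raised, 4 to 10 lowered and a median of -0.28 to 0.10 over the alternatives). Without wild type replicate 2 the split turned to 6 raised and 4 lowered. The receptor chains went apart: Tgfbr1 was at 153, 142 and 91.5 FPKM in wild type and 83.4, 81.4, 89.6 and 86.3 in the knockout, a change of -0.56 (SE 0.16, adjusted p = 0.0182). Tgfbr2 was at 46.4, 49.8 and 36.3 FPKM in wild type and 79.6, 91.2, 72.02 and 92.9 in the knockout, a change of 0.91 (SE 0.14, adjusted p = 4.38e-04). So the first fell and the second rose, neither with overlap, and the call of Tgfbr1 was lost in 3 of 19 alternatives and that of Tgfbr2 in none. The ligand Tgfb2 fell by 1.06 (SE 0.18), the ligand-activating integrin chains Itgav and Itgb8 changed by -0.53 and -0.77, and Id2, an inhibitor of DNA binding, rose by 0.95. Of 8 purinergic receptors and enzymes tested, 1 was raised (12.5%, against 17.5% of all genes), the ATP-gated channel P2rx4. It rose from 5.71, 6.05 and 4.65 FPKM in wild type to 11.9, 13.3, 13.2 and 11.8 in the knockout, a change of 1.07 (SE 0.09, adjusted p = 3.55e-06). P2ry12 and P2ry13 fell (25.0%, against 19.4% of all genes) and 5 did not pass. The list had 1 to 2 raised, 2 to 4 lowered and a median of -0.40 to -0.05 over the alternatives.

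TREM2 signals through the adaptor TYROBP and the kinase SYK. The receptor and its adaptors were among the members that rose. Trem2 (chr17:48346401-48354147, plus strand) was at 79.4, 86.9 and 52.9 FPKM in wild type, 170.0 and 151 in 5xFAD EGFP and 233, 222, 209.5 and 196 in the knockout. Tyrobp was at 239.5, 246 and 138 FPKM in wild type, 701 and 596 in 5xFAD EGFP and 691, 661, 717 and 628 in the knockout. For both genes every knockout library was above every wild type library, with changes of 1.57 (SE 0.19, adjusted p = 6.30e-05) and 1.74 (SE 0.21, adjusted p = 7.14e-05). The adaptor Hcst rose by 1.04 (SE 0.20). In all 5 of 20 members were raised (25.0%, against 17.5% of all genes) and 2 lowered (10.0%, against 19.4%), the latter being Pik3r1 (a subunit of PI3 kinase) and Adam10 (a protease that sheds TREM2). Syk, Plcg2, Vav1, Card9 and Inpp5d were among the 13 that did not pass. The list's median was 0.20 (3 to 7 raised, 1 to 4 lowered and a median of -0.03 to 0.28 over the alternatives).

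Among phagocytic receptors and integrins, 13 of 20 members were raised (65.0%, against 17.5% of all genes) and 1, Itgav, was lowered, with a median of 0.73 (8 to 13 raised, 1 to 5 lowered and a median of 0.17 to 0.83 over the alternatives). In 5xFAD EGFP the median was 0.21 and 5 members were raised, where 7.65% of all genes were. Axl, a receptor for phosphatidylserine on dying cells through its bridging ligand GAS6, was at 7.75, 6.41 and 11.8 FPKM in wild type, 65.05 and 57.4 in 5xFAD EGFP and 80.7, 95.4, 69.3 and 91.5 in the knockout. The change was 3.17 (SE 0.18, adjusted p = 1.16e-07). Its relative Mertk and the bridging ligands Gas6 and Pros1 did not pass. Cd300lf, a lipid-binding receptor, rose by 1.52 (SE 0.13) and Itga5, the fibronectin receptor chain, by 1.16. All 5 genes for Fc receptor chains tested were raised: Fcgr1 by 0.45, Fcgr2b by 0.97, Fcgr3 by 0.73, Fcgr4 by 0.82 and the shared chain Fcer1g by 0.99. Fcgr3 was at 207, 191 and 124 FPKM in wild type, 219.9 and 187 in 5xFAD EGFP and 281, 269, 300.4 and 284 in the knockout, so the knockout alone stood clear of wild type.

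The complement list had 6 of 12 members raised and 4 lowered (33.3%, against 19.4% of all genes), with a median of 0.57 (1 to 7 raised, 1 to 4 lowered and a median of 0.32 to 0.65 over the alternatives). The 3 chains of C1q, which tags synapses and debris, were raised together: C1qa was at 738, 802 and 465 FPKM in wild type and 1244, 1242, 1229 and 1253 in the knockout, and C1qb at 886, 989 and 594 FPKM in wild type and 1638, 1553, 1525 and 1527 in the knockout. The changes were 0.93 (SE 0.21, adjusted p = 0.00420) and 0.95 (SE 0.21, adjusted p = 0.00423), and that of C1qc was 0.78. The calls of C1qa and C1qb were each lost in 2 of 19 alternatives. The receptor C3ar1 and C4b rose by 0.65 and 0.66. Cd59a, which protects cells from the membrane attack complex, was at 3.38, 2.40 and 2.90 FPKM in wild type, 1.02 and 0.925 in 5xFAD EGFP and 1.46, 0.694, 1.30 and 0.779 in the knockout, a change of -0.93 (SE 0.20, adjusted p = 0.00417). Properdin (Cfp) changed by -0.72, C5ar2 by -0.52 and Cr1l by -0.24, while C3 and C5ar1 did not pass. Without wild type replicate 1 or 2 or knockout replicate 2, 2 members were lowered.

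Lysosomal genes were raised in 30 of 44 members (68.2%, against 17.5% of all genes) and lowered in 1, the proton pump subunit Atp6v1h, with a median of 0.71 (24 to 34 raised, 0 to 3 lowered and a median of 0.40 to 0.77 over the alternatives). Cathepsins, the main proteases of the lysosome, were among those that rose. Ctsd was at 858, 949 and 563 FPKM in wild type, 2482 and 2183 in 5xFAD EGFP and 3155, 3196, 3382 and 3041 in the knockout. Ctsl was at 31.2, 30.5 and 18.4 FPKM in wild type, 87.02 and 82.98 in 5xFAD EGFP and 116, 119, 107 and 109.7 in the knockout. Every knockout library exceeded both other groups for both genes, and the changes against wild type were 2.05 (SE 0.22, adjusted p = 2.36e-05) and 2.08 (SE 0.18, adjusted p = 3.41e-06). Ctsb and Ctsz rose by 1.87 and 1.99 and Ctss by 1.00, while Ctsc and Ctsf did not pass. Atp6v0d2, a subunit of the proton pump, was listed at 0 in wild type replicate 3 and at most 0.0386 FPKM in the other wild type libraries, and at 5.14, 6.10, 8.82 and 6.83 FPKM in the knockout, the largest change of the list at 2.90 (SE 0.17, adjusted p = 1.71e-07). The membrane protein Cd68 rose by 1.80, progranulin (Grn) by 1.14, Hexa by 1.40 and the sugar-removing enzymes Gusb and Glb1 by 1.63 and 1.45. Of the regulators, Mitf rose by 0.86 and Tfeb by 0.20, and Tfe3 did not pass.

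TFEB and MITF bind the CLEAR element, and the promoter of Ctsd is shown because it carries one. The letters TCACGTGA, searched on both strands from 250 bases before to 50 after each start in RefSeq promoters (build GRCm38.p6), were in 5 of the 34 lysosomal genes with a promoter in that table (14.7%), in 2.36% of 8567 tested genes and in 0.974% of 32851 promoters of this length. Of the 5 genes Ctsd, Ctsa and Atp6v1a passed the test, and Atp6v0d1 and Mcoln1 did not. The sequence is the strand of the gene, chr7:142387778-142388077, minus strand, 5′ to 3′, with the match in capitals. The match is a description of letters and not a test of binding.
Ctsd: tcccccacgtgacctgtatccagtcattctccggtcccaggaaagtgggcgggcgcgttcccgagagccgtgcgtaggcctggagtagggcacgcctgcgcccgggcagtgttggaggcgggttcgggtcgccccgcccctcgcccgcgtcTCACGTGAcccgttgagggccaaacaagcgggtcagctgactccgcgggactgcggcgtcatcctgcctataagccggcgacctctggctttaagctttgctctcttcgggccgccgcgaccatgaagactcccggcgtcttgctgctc

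Autophagy genes had 6 of 23 members raised (26.1%, against 17.5% of all genes) and 1 lowered (4.35%, against 19.4%), with a median of 0.07 (4 to 7 raised, 0 to 10 lowered and a median of -0.12 to 0.17 over the alternatives). The 3 members with the largest rise were receptors or coats of the autophagosome: Optn rose by 1.06 (SE 0.11), Gabarap by 0.87 (SE 0.13) and Sqstm1 (p62) by 0.74 (SE 0.10). Sqstm1 was at 28.1, 28.01 and 26.6 FPKM in wild type, 39.8 and 37.6 in 5xFAD EGFP and 51.8, 46.9, 42.9 and 45.96 in the knockout, without overlap. Map1lc3a and Map1lc3b did not pass.

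Lipid handling genes were raised in 12 of 23 members (52.2%, against 17.5% of all genes) and lowered in 3 (13.0%, against 19.4%), with 11 to 13 raised, 2 to 6 lowered and a median of 0.16 to 0.51 over the alternatives. Besides Apoe and Lpl, Ch25h, which makes 25-hydroxycholesterol, was at 0.534, 0.559 and 0.457 FPKM in wild type, 9.14 and 10.6 in 5xFAD EGFP and 9.91, 14.1, 12.3 and 15.2 in the knockout, a change of 3.18 (SE 0.12, adjusted p = 5.56e-09). The fatty acid binding proteins Fabp5 and Fabp3 rose by 2.45 and 2.43, the lipid droplet coat Plin2 by 1.62 and the lysosomal cholesterol carrier Npc2 by 1.45. Of the members raised, Apoe, Lpl, Ch25h, Fabp5 and Plin2 are also counted in the disease-associated list. Pltp, which transfers phospholipids, fell by 1.54 and Pla2g7 fell by 1.01. The sterol exporters Abca1 and Abcg1 did not pass. Of 22 genes of cholesterol synthesis 3 were raised (13.6%, against 17.5% of all genes), 1 was lowered (4.55%, against 19.4%) and 18 did not pass, with a median of -0.11 against 0.15 in 5xFAD EGFP (1 to 5 raised, 0 to 12 lowered and a median of -0.28 to 0.20 over the alternatives). Raised and lowered members numbered 1 and 0 without wild type replicate 1, 1 and 4 without replicate 2, 4 and 0 without replicate 3, and 1 and 0 without knockout replicate 2. Against 5xFAD EGFP, 21 of the 22 members had a lower mean in the knockout, against 48.2% of all genes, with a median difference of -0.26 and none past the test. Oligodendrocyte markers summed to 686 and 729 FPKM in 5xFAD EGFP and to 238 to 396 in the knockout, and their part in these values was not tested.

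Interferon-stimulated genes were raised in 30 of 35 members and lowered in none, against 17.5% raised among all genes, with a median of 0.77 (15 to 31 raised, 0 lowered and a median of 0.64 to 1.09 over the alternatives). In 5xFAD EGFP 13 members were raised, where 7.65% of all genes were, and the median was 0.46. Ifi27l2a was at 3.66, 3.26 and 2.50 FPKM in wild type, 23.1 and 15.3 in 5xFAD EGFP and 25.1, 33.2, 17.1 and 22.8 in the knockout. Knockout and 5xFAD EGFP libraries overlapped and both lay above wild type, the knockout by 2.60 (SE 0.24, adjusted p = 6.80e-06). Ifi204, a DNA sensor, was at 1.77, 1.74 and 1.12 FPKM in wild type, 6.40 and 5.29 in 5xFAD EGFP and 7.49, 10.3, 6.64 and 9.57 in the knockout, and Lgals3bp, a secreted glycoprotein, at 28.8, 29.9 and 16.2 FPKM in wild type, 112 and 98.9 in 5xFAD EGFP and 144, 179, 114 and 151 in the knockout. Every knockout library of both genes was above all 5xFAD EGFP libraries, and the changes against wild type were 1.89 (SE 0.15, adjusted p = 1.96e-06) and 2.54 (SE 0.20, adjusted p = 2.06e-06). Of the transcription factors of the pathway, Irf7 rose by 0.80, Stat2 by 0.68 and Irf9 by 0.44. Antiviral effectors ranged from Oas1a at 1.84 and Ifit2 at 1.49 to Isg15 at 0.98, Ifit3 at 1.20 and Ifit1 at 0.42. Usp18, which damps the receptor, rose by 1.25, and Zbp1, a sensor of left-handed nucleic acid, by 1.46. Ly6e, among the most abundant members, rose by 0.75 (SE 0.18). The 5 that did not pass were Cmpk2, Ifi35, Slfn8, Gbp2 and Samd9l. Ifit3 and Ifit3b are near-identical copies, and reads may have been split between them.

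The interferon-stimulated response element (ISRE) is bound by STAT2 and IRF9, and promoters of genes that rose are shown because they carry it. The letters GAAA, any 2 bases and GAAA, searched on both strands with overlapping matches allowed, were in 13 of 25 interferon-stimulated genes with a RefSeq promoter (52.0%) and in 4 of 15 MHC class I genes (26.7%). The share was 3.75% of tested genes and 3.44% of all promoters of the same length. Of the 13 genes, 11 passed the test and 2, Slfn8 and Gbp2, did not. The promoters below are in GRCm38.p6, 5′ to 3′ on the gene's strand, with matches in capitals: Oas1a (chr5:120907476-120907775, minus strand), Ifit3 (chr19:34583279-34583578, plus strand, where both matches lie on the opposite strand) and B2m (chr2:122147437-122147736, plus strand). Matches in Oas1a overlap, so their capitals run together.
Oas1a: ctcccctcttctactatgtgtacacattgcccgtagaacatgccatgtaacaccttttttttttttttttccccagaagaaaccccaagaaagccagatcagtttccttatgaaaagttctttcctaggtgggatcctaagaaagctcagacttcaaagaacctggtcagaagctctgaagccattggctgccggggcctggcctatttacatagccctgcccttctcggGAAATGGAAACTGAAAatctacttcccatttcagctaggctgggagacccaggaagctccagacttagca
Ifit3: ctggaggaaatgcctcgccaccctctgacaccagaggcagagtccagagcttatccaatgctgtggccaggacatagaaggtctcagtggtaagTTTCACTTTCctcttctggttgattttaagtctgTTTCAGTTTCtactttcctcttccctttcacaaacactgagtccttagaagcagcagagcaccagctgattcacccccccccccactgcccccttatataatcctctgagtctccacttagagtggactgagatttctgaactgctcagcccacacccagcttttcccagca
B2m: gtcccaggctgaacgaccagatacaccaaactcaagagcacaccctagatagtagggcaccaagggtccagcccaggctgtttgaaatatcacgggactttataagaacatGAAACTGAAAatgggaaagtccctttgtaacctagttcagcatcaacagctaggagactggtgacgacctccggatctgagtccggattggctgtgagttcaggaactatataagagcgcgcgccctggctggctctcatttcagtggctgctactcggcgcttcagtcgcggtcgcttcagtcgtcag

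MHC class I presents peptides from inside the cell. Of 18 members, 15 were raised (83.3%, against 17.5% of all genes) and none was lowered, with a median of 1.08 (13 to 17 raised, 0 lowered and a median of 0.86 to 1.19 over the alternatives). For 5xFAD EGFP the median was 0.63 and 12 members were raised, where 7.65% of all genes were. B2m, the light chain, was at 475, 439 and 281 FPKM in wild type, 968 and 848 in 5xFAD EGFP and 981, 1053, 1006 and 1019 in the knockout. The heavy chain gene H2-D1 was at 73.6, 72.2 and 58.1 FPKM in wild type, 208 and 205 in 5xFAD EGFP and 277, 289.5, 267 and 234 in the knockout. Both disease groups stood clear of wild type, and the knockout changes were 1.38 (SE 0.18, adjusted p = 1.11e-04) and 1.96 (SE 0.13, adjusted p = 4.66e-07). H2-K1 rose by 1.68, the non-classical H2-Q6 and H2-Q7 by 2.16 and 1.90, the transactivator Nlrc5 by 1.61 and the immunoproteasome chain Psmb8 by 1.01. The peptide transporter chain Tap1 rose by 0.67, and Tap2, Tapbpl and Erap1 did not pass. H2 genes are alike in sequence, and the split of reads among them is uncertain.

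MHC class II presents peptides taken up from outside. Of 11 members 8 were raised (72.7%, against 17.5% of all genes), and the costimulator Cd80 was lowered, with a median of 0.69 (7 to 8 raised, 0 to 2 lowered and a median of 0.49 to 1.12 over the alternatives). Cd74, the invariant chain, was at 60.1, 62.99 and 51.8 FPKM in wild type, 295 and 244 in 5xFAD EGFP and 435, 286, 587 and 329.5 in the knockout. H2-Aa was at 9.43, 9.74 and 7.34 FPKM in wild type, 33.4 and 27.5 in 5xFAD EGFP and 40.9, 26.9, 64.04 and 32.4 in the knockout, and H2-Ab1 at 12.5, 13.3 and 10.2 FPKM in wild type, 38.1 and 32.6 in 5xFAD EGFP and 50.1, 35.9, 77.7 and 41.04 in the knockout. All 3 genes were highest in knockout replicate 3 and lowest in knockout replicate 2, and rose by 2.74 (SE 0.27), 2.03 (SE 0.31) and 1.95 (SE 0.27). Border macrophages, which also carry class II, had summed markers of 42.6 to 63.2 FPKM in the knockout against 104 to 156 in wild type. The 6 B cell markers in the table summed to 1.56 to 3.07 FPKM in the knockout and 2.17 to 4.15 in wild type. Of these Cd79b took the most, at 3.86, 3.52 and 1.98 FPKM in wild type and 2.24, 3.04, 1.41 and 1.76 in the knockout, and did not pass, while the defining markers Ms4a1 and Pax5 were at most 0.0120 FPKM. The part of these cells in the class II values was not tested.

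Genes of the pathway of PKR itself passed about as often as all genes did. Of 25 genes of double-stranded RNA sensing and eIF2 kinases, 6 were raised (24.0%, against 17.5% of all genes), 4 were lowered (16.0%, against 19.4%) and 15 did not pass, with a median of 0.07 (5 to 7 raised, 2 to 10 lowered and a median of -0.12 to 0.13 over the alternatives). Eif2ak2, the gene named in the knockout label, was itself among the 4 lowered, and its call was lost in 12 of 19 alternatives. None of the other eIF2 kinases (Eif2ak1, Eif2ak3 and Eif2ak4) nor the substrate Eif2s1 passed. Ppp1r15a, the subunit that directs a phosphatase to eIF2, was at 12.5, 10.1 and 8.08 FPKM in wild type, 13.4 and 17.2 in 5xFAD EGFP and 27.6, 26.6, 21.9 and 23.7 in the knockout. Every knockout library was above both other groups, with a change of 1.23 (SE 0.14, adjusted p = 3.42e-05) against wild type and 0.68 (adjusted p = 0.136) against 5xFAD EGFP. The editing enzymes of double-stranded RNA rose, Adar by 0.62 and Adarb1 from 2.85, 2.67 and 3.73 FPKM in wild type to 6.75, 6.52, 7.27 and 6.88 in the knockout, a change of 0.95 (SE 0.08, adjusted p = 4.63e-06). Among sensors, Ifih1 (MDA5) rose by 0.37, Tlr3 fell by 0.67, and Ddx58 (RIG-I), Mavs and Cgas did not pass. Sting1, the adaptor of DNA sensing, was at 49.5, 48.04 and 31.5 FPKM in wild type, 31.2 and 26.5 in 5xFAD EGFP and 24.5, 26.3, 27.9 and 25.4 in the knockout, and fell by 0.68 (SE 0.17, adjusted p = 0.00781).

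Targets of ATF4, the factor made when eIF2 is phosphorylated, were raised in 6 of 27 members (22.2%, against 17.5% of all genes) and lowered in 2 (7.41%, against 19.4%), with 19 that did not pass. Atf4 itself rose by 0.46. Atf3, also an immediate early gene, was at 40.01, 32.99 and 25.5 FPKM in wild type, 84.6 and 114 in 5xFAD EGFP and 149, 161, 126 and 154 in the knockout, a change of 2.15 (SE 0.17, adjusted p = 2.30e-06). Psat1, of serine synthesis, was at 5.66, 5.34 and 12.3 FPKM in wild type, 21.7 and 19.5 in 5xFAD EGFP and 23.5, 24.2, 21.5 and 24.4 in the knockout, a change of 1.56 (SE 0.20, adjusted p = 9.78e-05), while Phgdh of the same route did not pass. The aminoacyl-tRNA synthetases Sars and Eprs rose by 0.58 and 0.49, and 9 others did not pass. The amino acid transporter Slc7a5 fell by 0.86, and its partner Slc3a2 was at 44.4, 39.5 and 33.5 FPKM in wild type and 39.4, 36.3, 34.2 and 35.5 in the knockout. Ddit4, an inhibitor of mTOR signalling, was at 26.96, 5.65 and 9.31 FPKM in wild type and 9.69, 2.42, 8.69 and 1.91 in the knockout, wide and overlapping ranges that did not pass. The list's median was 0.09 (4 to 9 raised, 1 to 8 lowered and a median of -0.10 to 0.14 over the alternatives). Its lowered members numbered 4 without wild type replicate 2 and 1 without replicate 1 or 3.

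Chaperones of the endoplasmic reticulum were raised in 11 of 20 members (55.0%, against 17.5% of all genes) and lowered in none, with a median of 0.51 (8 to 12 raised, 0 to 1 lowered and a median of 0.23 to 0.63 over the alternatives). In 5xFAD EGFP the median was 0.12 and 1 member was raised, where 7.65% of all genes were. Hspa5 (BiP), the master chaperone, was at 69.8, 55.2 and 47.95 FPKM in wild type, 109 and 75.8 in 5xFAD EGFP and 129.7, 97.7, 187 and 120.3 in the knockout, a change of 1.18 (SE 0.22, adjusted p = 0.00136). Sdf2l1, its cofactor, was at 13.5, 16.8 and 8.30 FPKM in wild type, 32.8 and 28.98 in 5xFAD EGFP and 43.5, 32.8, 54.4 and 36.5 in the knockout, a change of 1.65 (SE 0.25, adjusted p = 3.20e-04). Calr and Hsp90b1 rose by 1.01 (SE 0.17) and 0.86 (SE 0.15). Knockout replicate 3 was the highest library for all 4 genes. The regulators Xbp1, Ern1, Atf6 and Herpud1 did not pass. Against 5xFAD EGFP, 18 of 20 members had a higher mean in the knockout, against 51.8% of all genes, with a median of 0.36, and none passed the test.

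Of 12 heat shock genes 4 were raised (33.3%, against 17.5% of all genes), 2 were lowered (16.7%, against 19.4%) and 6 did not pass. The list had 2 to 4 raised, 0 to 2 lowered and a median of -0.21 to 0.20 over the alternatives. The constitutive chaperones Hspa8 and Hsp90ab1 rose by 0.81 (SE 0.19, adjusted p = 0.00696) and 0.72 (SE 0.18, adjusted p = 0.00983), and the mitochondrial pair Hspe1 and Hspd1 by 0.57 and 0.36. The stress-induced Hspa1b was at 219, 109.9 and 126 FPKM in wild type, 214 and 140.2 in 5xFAD EGFP and 69.3, 39.8, 129 and 30.1 in the knockout, and its near-identical copy Hspa1a followed it. Both fell, by 1.32 (SE 0.44) and by 1.25 (SE 0.42), with overlap between the groups, and the call of each was lost in 6 of 19 alternatives.

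Ribosomal protein genes were raised almost throughout, with 74 of 80 raised (92.5%, against 17.5% of all genes), none lowered and a median of 0.93 (64 to 74 raised, 0 to 1 lowered and a median of 0.67 to 0.97 over the alternatives). For 5xFAD EGFP the median was 0.74 and 61 were raised, where 7.65% of all genes were. Rps15 was at 123, 109 and 153 FPKM in wild type, 243 and 237 in 5xFAD EGFP and 332, 304, 267 and 354 in the knockout. Rpl19 was at 15.9, 17.02 and 18.4 FPKM in wild type, 40.00 and 40.6 in 5xFAD EGFP and 58.6, 57.8, 43.6 and 73.01 in the knockout. The disease libraries of both genes stood clear of wild type, and the knockout changes were 1.29 (SE 0.14, adjusted p = 3.38e-05) and 1.69 (SE 0.15, adjusted p = 4.26e-06). The list took 1.86% to 2.06% of summed FPKM in wild type, 2.98% to 3.25% in 5xFAD EGFP and 3.15% to 3.75% in the knockout. These genes have many near-identical pseudogenes, and a difference in how reads were assigned was not tested. Proteasome genes had 4 of 31 raised (12.9%, against 17.5% of all genes) and 1 lowered. Psmb6, the largest change, was at 9.87, 11.1 and 9.94 FPKM in wild type and 18.9, 17.9, 15.5 and 15.9 in the knockout, a change of 0.67 (SE 0.12, adjusted p = 0.00117), and the list's median was 0.07 (1 to 9 raised, 0 to 10 lowered and a median of -0.13 to 0.14 over the alternatives). With median-ratio scaling 9 members were raised, and on rescaling 10 were lowered.

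NF-kB and inflammatory genes were raised in 24 of 33 members (72.7%, against 17.5% of all genes) and lowered in 1, Il18, with a median of 0.59 (19 to 26 raised, 1 to 3 lowered and a median of 0.46 to 0.80 over the alternatives). In 5xFAD EGFP the median was 0.32 and 10 members were raised, where 7.65% of all genes were. The cytokine Il1b was at 3.77, 5.49 and 2.47 FPKM in wild type, 14.3 and 10.1 in 5xFAD EGFP and 18.6, 26.1, 15.3 and 21.8 in the knockout, a change of 2.15 (SE 0.23, adjusted p = 2.00e-05). Tnf rose by 1.87 and Il1a by 0.56. Nfkbiz, an atypical inhibitor protein of the family, was at 15.9, 15.4 and 10.6 FPKM in wild type, 31.97 and 37.4 in 5xFAD EGFP and 62.7, 70.1, 51.7 and 71.1 in the knockout, and Nfkbia, which holds NF-kB in the cytoplasm, at 72.8, 56.4 and 43.7 FPKM in wild type, 86.1 and 81.2 in 5xFAD EGFP and 176, 168, 126 and 159.5 in the knockout. Every knockout library was above all other libraries for both, with changes against wild type of 2.13 (SE 0.16, adjusted p = 1.29e-06) and 1.45 (SE 0.17, adjusted p = 5.40e-05). Tnfaip3 (A20) rose by 2.11 and Zfp36, which degrades cytokine mRNA, was at 92.2, 68.6 and 45.3 FPKM in wild type and 264, 265, 206 and 214 in the knockout. The chemerin-binding receptor Ccrl2 rose by 2.31 (SE 0.18), the largest change of the list, and the receptors Tlr2 and Cd14 by 2.05 and 1.46. The subunits Nfkb1, Rela and Rel did not pass, while Nfkb2 and Relb rose by 0.65 and 0.48. Of inflammasome genes Nlrp3 rose by 1.02 and Casp1 by 0.43, and Pycard and Gsdmd did not pass.

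Nfkbia is itself a target of NF-kB, and its promoter is shown because it carries the site GGGA, any base, TTTCC. Searched on both strands, these letters were in 2 of 27 NF-kB and inflammatory genes with a promoter (7.41%), Nfkbia and Nfkb2, in 0.525% of tested genes and in 0.411% of all promoters. With 2 genes this share is a bare count. The promoter is chr12:55492598-55492897 in GRCm38.p6, minus strand, with the match in capitals. The match lies on the strand opposite to the one printed, so the capitals show the reverse complement of the site.
Nfkbia: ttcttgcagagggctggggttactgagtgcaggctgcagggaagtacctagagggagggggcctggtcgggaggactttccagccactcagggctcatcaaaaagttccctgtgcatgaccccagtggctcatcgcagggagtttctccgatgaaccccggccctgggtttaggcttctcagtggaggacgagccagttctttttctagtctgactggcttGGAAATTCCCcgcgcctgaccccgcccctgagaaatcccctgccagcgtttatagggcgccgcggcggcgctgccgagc

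Chemokines and their receptors had 8 of 15 members raised (53.3%, against 17.5% of all genes) and 2 lowered (13.3%, against 19.4%), with 6 to 9 raised, 1 to 4 lowered and a median of 0.64 to 1.80 over the alternatives. Ccl3 was at 62.8, 54.01 and 29.1 FPKM in wild type, 212 and 273 in 5xFAD EGFP and 318, 397, 249 and 374 in the knockout, and Ccl4, its neighbour, at 54.3, 46.2 and 28.4 FPKM in wild type, 168 and 187 in 5xFAD EGFP and 255, 305, 189.6 and 265 in the knockout. Both were raised without overlap, by 2.81 (SE 0.25) and 2.56 (SE 0.23). Ccl6 was at 12.7, 13.00 and 8.69 FPKM in wild type, 68.5 and 61.4 in 5xFAD EGFP and 58.6, 58.9, 71.1 and 64.7 in the knockout, so that the disease groups lay at one level. The receptor Cxcr4 rose by 2.02, Cxcl16 by 1.80 and the interferon-induced Cxcl10 by 1.40. The neuronal ligand Cx3cl1 fell by 0.79. Ccl2, Ccl7, Ccl8, Ccl9 and Cxcl14 did not pass.

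Immediate early genes, transcribed within minutes of a stimulus, were raised in 19 of 24 members (79.2%, against 17.5% of all genes) and lowered in none, with a median of 0.84 (16 to 19 raised, 0 lowered and a median of 0.70 to 1.29 over the alternatives). For 5xFAD EGFP the median was 0.45 and 9 members were raised, where 7.65% of all genes were. Junb, an AP-1 subunit, was at 172, 160.4 and 106 FPKM in wild type, 180.5 and 191 in 5xFAD EGFP and 397, 397, 330.3 and 327 in the knockout. The 5xFAD EGFP libraries lay just above wild type and the knockout far above both, by 1.33 (SE 0.18, adjusted p = 1.58e-04) against wild type and 0.95 (adjusted p = 0.116) against 5xFAD EGFP. Maff, a small partner of AP-1 type factors, was at 1.36, 1.07 and 1.33 FPKM in wild type, 6.37 and 6.87 in 5xFAD EGFP and 14.8, 15.1, 11.4 and 11.5 in the knockout, the largest rise of the list at 2.65 (SE 0.12). Egr2 rose by 2.28 (SE 0.14) and Jun by 0.83 (SE 0.19). Fos, Fosb and Egr1 rose by 1.30, 1.52 and 1.29, and the phosphatase Dusp1 by 1.69. Fosl2, Egr3, Nr4a1, Klf2 and Klf4 did not pass.

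Targets of p53 had 6 of 19 members raised (31.6%, against 17.5% of all genes) and 4 lowered (21.1%, against 19.4%), with a median of -0.03 (3 to 8 raised, 2 to 9 lowered and a median of -0.23 to 0.10 over the alternatives). Without wild type replicate 1, 2 members were lowered, and on rescaling 9 were. Cdkn1a (p21), which stops the cell cycle, was at 2.93, 2.26 and 2.46 FPKM in wild type, 4.60 and 4.64 in 5xFAD EGFP and 9.69, 8.27, 10.6 and 7.47 in the knockout, a change of 1.49 (SE 0.11, adjusted p = 1.64e-06). Gadd45b rose by 1.99 (SE 0.15), Pmaip1 (Noxa) by 1.24 (SE 0.12) and Bax by 0.53 (SE 0.12), while Trp53, Mdm2 and Ccng1 did not pass and Sesn1 fell by 0.44. Of 34 cell cycle genes, only 12 reached the level for testing, of which 4 were raised (33.3%, against 17.5% of all genes) and 1 lowered (8.33%, against 19.4%), with 1 to 5 raised, 0 to 1 lowered and a median of 0.01 to 0.25 over the alternatives. Mki67, the proliferation antigen, was at 0.867, 0.890 and 0.705 FPKM in wild type, 1.75 and 2.06 in 5xFAD EGFP and 2.05, 2.94, 2.21 and 2.50 in the knockout, a change of 0.91 (SE 0.11, adjusted p = 5.89e-05). Hmgb2 rose by 0.79 (SE 0.16) and Pcna by 0.41 (SE 0.13), the latter with its call lost in 6 of 19 alternatives. Mitotic genes such as Top2a, Cdk1 and Ccnb1 were under 1 FPKM on average and were not tested.

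Glycolysis and hypoxia genes were raised in 19 of 27 members (70.4%, against 17.5% of all genes) and lowered in 2, with a median of 0.76 (15 to 20 raised, 1 to 4 lowered and a median of 0.54 to 0.85 over the alternatives). In 5xFAD EGFP the median was 0.54 and 14 members were raised, where 7.65% of all genes were. Hif1a, the oxygen-regulated transcription factor, was at 12.2, 11.9 and 9.20 FPKM in wild type, 49.96 and 46.6 in 5xFAD EGFP and 49.5, 60.3, 48.3 and 68.5 in the knockout. Egln3, an enzyme that marks HIF for decay and is its target, was at 0.294, 0.362 and 0.528 FPKM in wild type, 7.99 and 6.14 in 5xFAD EGFP and 9.14, 7.61, 10.5 and 7.19 in the knockout. Knockout and 5xFAD EGFP overlapped for both, with changes over wild type of 2.25 (SE 0.14, adjusted p = 2.00e-07) and 2.77 (SE 0.13, adjusted p = 2.21e-08). The glycolytic enzymes that rose include Gpi1 by 0.94, Pfkl by 0.85, Aldoa by 1.10, Tpi1 by 1.18, Gapdh by 0.95, Pgk1 by 0.82, Pgam1 by 0.76, Eno1 by 0.67, Pkm by 1.25 and Ldha by 0.94. Pkm was at 36.3, 34.8 and 36.2 FPKM in wild type and 94.96, 81.98, 87.8 and 81.4 in the knockout. The platelet isoform Pfkp and the hypoxia gene Ndrg1 fell by 0.64 and 0.95. Slc2a1, Vegfa and Bnip3 did not pass.

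Nuclear genes of the respiratory chain had 8 of 52 raised (15.4%, near the 17.5% of all genes), 1 lowered and 43 that did not pass. Ndufa1 was the largest change at 1.34 (SE 0.22, adjusted p = 6.88e-04), from 7.48, 6.11 and 3.22 FPKM in wild type to 15.3, 15.4, 15.6 and 13.9 in the knockout, and the list's median was 0.08 (2 to 16 raised, 0 to 22 lowered and a median of -0.15 to 0.12 over the alternatives). With median-ratio scaling 16 members were raised, on rescaling 22 were lowered, and the raised numbered 5, 3 and 4 without wild type replicate 1, wild type replicate 2 and knockout replicate 2. Of the 13 mitochondrially encoded genes, mt-Nd3 was lowered, from 253, 163 and 298 FPKM in wild type to 134, 124, 139 and 173 in the knockout with overlap, and 12 did not pass. The call of mt-Nd3 was lost in 8 of 19 alternatives. Lowered members of this list numbered 4 on rescaling, 7 with quantile normalization and 0 without wild type replicate 1 or 3. Mitochondrial RNA took 8.32% to 16.3% of summed FPKM in wild type, highest in replicate 3, 13.0% and 13.5% in 5xFAD EGFP and 6.81% to 10.8% in the knockout, highest in replicate 4.

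Iron and oxidant genes had 9 of 21 members raised (42.9%, against 17.5% of all genes) and 6 lowered (28.6%, against 19.4%), with 7 to 10 raised, 3 to 7 lowered and a median of 0.10 to 0.52 over the alternatives. The ferritin chain Ftl1 was at 174, 162 and 123 FPKM in wild type, 318 and 289.7 in 5xFAD EGFP and 413, 393, 371 and 362 in the knockout, a change of 1.34 (SE 0.15, adjusted p = 3.13e-05). Slc40a1 (ferroportin), the iron exporter, was at 13.9, 12.2 and 9.61 FPKM in wild type, 5.84 and 5.35 in 5xFAD EGFP and 4.56, 4.05, 5.36 and 3.94 in the knockout, and fell by 1.23 (SE 0.12). The importer Tfrc fell by 0.72 and the phagosomal transporter Slc11a1 rose by 1.04. The heavy ferritin chain Fth1 was at 159, 129 and 349.8 FPKM in wild type, where replicate 3 stood with the disease libraries, and 364, 334, 308 and 456 in the knockout, and its call was lost in 11 of 19 alternatives. Cybb, the catalytic chain of the phagocyte NADPH oxidase, rose by 1.62 (SE 0.18), and Hmox1 by 0.97. The glutathione synthesis genes Gclc and Gclm fell by 0.31 and 0.32.

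**Figure D3:**
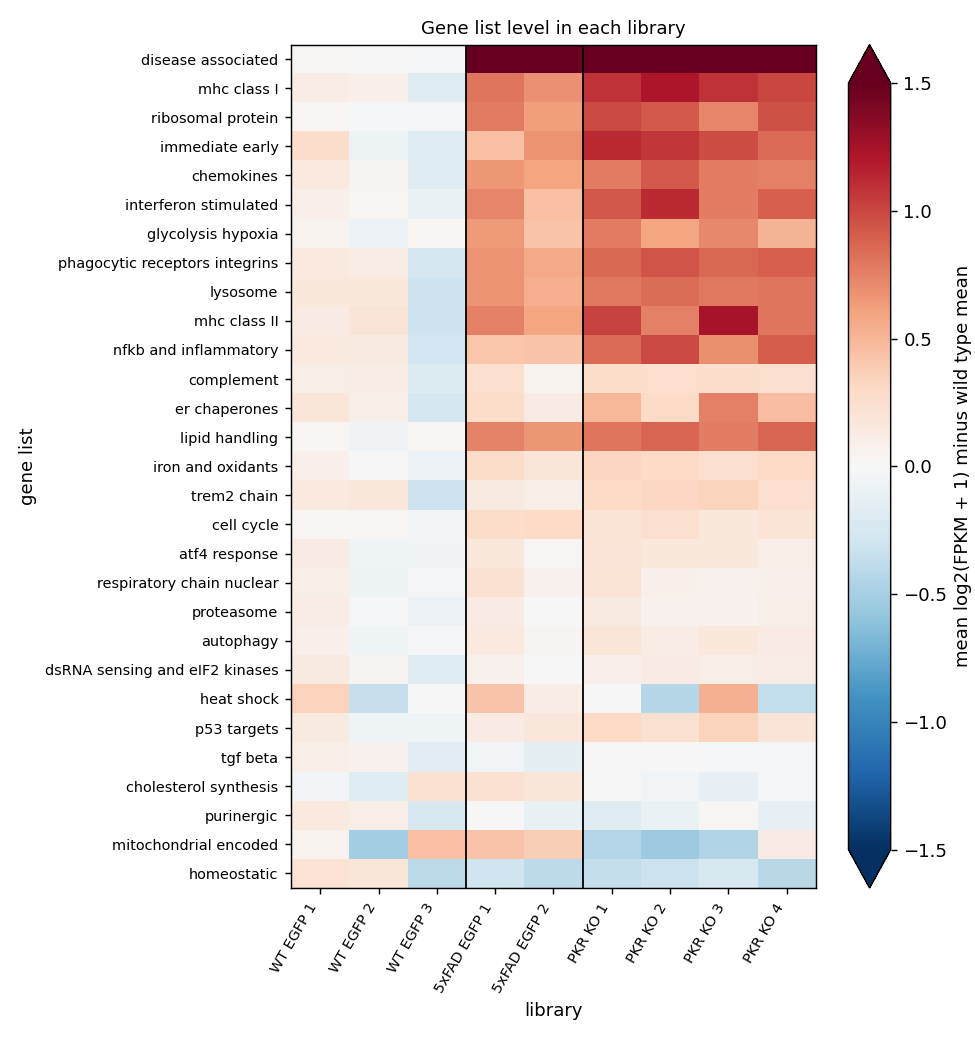
Mean log2(FPKM + 1) of each gene list in each library minus the wild type mean, as colour from -1.5 (blue) to 1.5 (red), with values beyond that range drawn at its end. Rows are lists, columns the 3 wild type EGFP, 2 5xFAD EGFP and 4 PKR knockout libraries. The disease-associated row lies beyond the scale in every disease library, the MHC class II and ER chaperone rows are highest in knockout replicate 3, and the mitochondrially encoded row is higher in knockout replicate 4 than in the other knockout libraries.

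The knockout libraries were close to each other, with correlations over the tested genes of 0.986 to 0.993, and some lists differed among them. The mean log2(FPKM + 1) of MHC class II members was 4.48, 4.22, 4.70 and 4.27 in replicates 1 to 4, that of ER chaperones 4.94, 4.74, 5.20 and 4.90 and that of heat shock genes 4.49, 4.07, 5.02 and 4.13. For these 3 lists replicate 3 was the highest and replicate 2 the lowest. Choroid and ependymal markers spread more widely, at 4.14, 3.23, 4.08 and 2.98, and the mitochondrially encoded list was at 9.33, 9.23, 9.32 and 9.89. Interferon-stimulated members were at 3.13, 3.31, 2.97 and 3.09, with replicate 2 the highest and replicate 3 the lowest. Disease-associated members were at 5.74, 5.90, 5.74 and 5.87, all above the 5xFAD EGFP values of 5.41 and 5.38 and the wild type range of 2.51 to 2.57. Erythroid markers, a sign of blood, summed to 83.2, 3.60, 139 and 14.7 FPKM in the same order, so that replicates 1 and 3 were also the libraries with the most haemoglobin RNA, and its part in these values was not tested.

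Genes known from ependymal cells and choroid plexus, which line the ventricles, were among the largest falls. The 10 most lowered genes were those with the largest fall that were also lower in every knockout library than in every wild type library. Tmem212, of ciliated ependymal cells, was at 3.90, 4.86 and 13.9 FPKM in wild type, 2.56 and 1.30 in 5xFAD EGFP and 0.484, 0.0599, 0.427 and 0.182 in the knockout, a change of -2.56 (SE 0.37, adjusted p = 2.45e-04). Foxj1, the regulator of motile cilia, was at 5.46, 5.96 and 15.96 FPKM in wild type, 2.67 and 2.16 in 5xFAD EGFP and 1.24, 0.496, 1.20 and 0.646 in the knockout, a change of -2.29 (SE 0.39, adjusted p = 7.44e-04). Ccdc153 and Dynlrb2, of motile cilia, fell by 2.42 and 2.33, Myoc fell by 2.54, Nnat by 2.18 and Gm19935 by 2.13. Ttr, the thyroid hormone carrier made by choroid plexus, was at 2647, 2054 and 1016 FPKM in wild type, 769 and 560.1 in 5xFAD EGFP and 815, 308, 802 and 202 in the knockout. Its knockout libraries overlapped 5xFAD EGFP and spread widely, and the change of -1.98 (SE 0.62, adjusted p = 0.0255) lost the call in 5 of 19 alternatives. Enpp2 and Ecrg4, of the same tissue, fell by 1.94 and 2.16. The 5 choroid and ependymal markers were all lowered, against 19.4% of all genes, and without wild type replicate 1 only 2 of the 5 passed. They summed to 2894, 2227 and 1142 FPKM in wild type and to 227 to 880 in the knockout.

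Markers of vessels and border macrophages were also lower. Of 13 endothelial markers 11 were lowered (84.6%, against 19.4% of all genes) and none raised (median -1.01), summing to 95.2 to 220 FPKM in wild type and 59.2 to 89.8 in the knockout, and without wild type replicate 1 the lowered count was 7. All 8 tested mural cell markers were lowered, against 19.4% of all genes (median -1.33). Among them Rgs5 went from 35.03, 15.8 and 34.95 FPKM in wild type to 13.6, 7.94, 11.7 and 8.16 in the knockout. The contractile Acta2 went from 25.02, 14.9 and 28.00 FPKM in wild type to 9.78, 4.50, 10.2 and 5.26 in the knockout. Border macrophage markers were lowered in 7 of 9 (77.8%, against 19.4% of all genes, median -1.16). Mrc1, the mannose receptor, was at 17.8, 21.2 and 14.2 FPKM in wild type, 9.14 and 6.64 in 5xFAD EGFP and 5.72, 6.02, 5.76 and 5.27 in the knockout. The same 3 lists were lowered in 5xFAD EGFP, in 11, 8 and 7 members, against 6.35% of all genes there, with medians of -1.39, -1.51 and -1.01. The part of fewer vessel, ependymal and border macrophage cells in the other lowered genes, Ecscr among them, was not tested. No neuron marker passed, but 2 were raised without wild type replicate 3. Of 10 oligodendrocyte markers 1, Cspg4, was raised (10.0%, against 17.5% of all genes), with 4 lowered on rescaling. Of 10 astrocyte markers 3 were lowered and Gfap alone was raised, from 16.3, 11.6 and 29.9 FPKM in wild type to 116, 81.5, 66.5 and 100.1 in the knockout with 5xFAD EGFP at 74.6 and 50.3, a change of 2.25 (SE 0.31, adjusted p = 1.59e-04), while lowered astrocyte markers numbered 6 without wild type replicate 2 and on rescaling and 2 without wild type replicate 3 or knockout replicate 2. Astrocyte markers summed to 132 to 454 FPKM in wild type and 171 to 275 in the knockout. Csf3r was the 1 neutrophil list member that rose, by 0.72, and Ly6g, Mpo and Elane were at most 0.190 FPKM in any of the 9 libraries. Knockout replicate 4 stood above the other knockout libraries in granule genes of neutrophils, with S100a9 at 2.56, 1.37, 0.335 and 11.9 FPKM in replicates 1 to 4 and Ngp at 0.525, 0.175, 0.0835 and 6.68. Wild type had S100a9 at 2.15, 2.99 and 2.32 FPKM, neither gene passed, and Csf3r was lowest among the knockout libraries in replicate 4, at 137 FPKM.

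**Figure D4:**
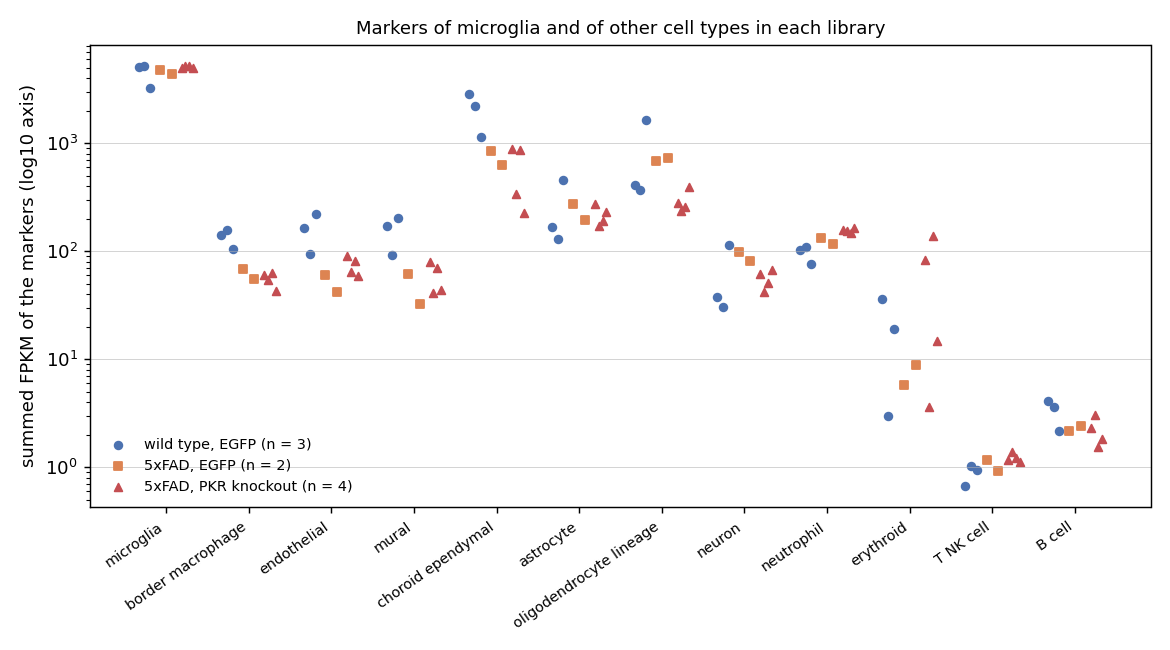
Summed FPKM of marker genes (log10 axis) of microglia and 11 other cell types in each wild type EGFP (circles, n = 3), 5xFAD EGFP (squares, n = 2) and PKR knockout 5xFAD (triangles, n = 4) library. Microglia sums lie between 4426 and 5252 FPKM except in wild type replicate 3 at 3253, border macrophage, endothelial and mural sums of the knockout lie below those of wild type, and erythroid sums spread from 3.01 to 139 FPKM.

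Compared directly with 5xFAD EGFP, the 5xFAD group with the EGFP vector and no PKR knockout in its labels, 9 of 10817 genes (0.0832%) passed in the knockout and 1404 had an unadjusted p under 0.05. All 9 were higher in the knockout, each at an adjusted p of 0.043. Zc3h12a, an RNase that degrades cytokine mRNA, was at 7.20 and 8.91 FPKM in 5xFAD EGFP and 19.9, 18.4, 15.8 and 15.6 in the knockout, a difference of 1.02, with wild type at 5.81, 6.39 and 3.93. Dkk2, a secreted modulator of Wnt signalling, was at 4.09 and 3.90 FPKM in 5xFAD EGFP and 9.03, 8.13, 10.1 and 8.85 in the knockout, a difference of 1.00, and under 0.1 in wild type. Tmsb10, an actin-binding peptide, was at 10.2 and 12.6 FPKM in 5xFAD EGFP and 21.2, 24.3, 19.1 and 24.4 in the knockout, a difference of 0.91. For all 3 genes the knockout libraries lay above all others. Maff and Cdkn1a differed by 0.89 and 0.82, Lox (lysyl oxidase) by 0.63 and Mthfs, of folate metabolism, by 0.57. For these 7 genes 5xFAD EGFP itself lay above wild type, by 0.36 for Mthfs to 2.23 for Dkk2.

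The other two did not follow that order. Kdm6b, a histone demethylase, was at 7.16, 8.30 and 6.44 FPKM in wild type, 5.55 and 6.47 in 5xFAD EGFP and 11.1, 11.2, 9.59 and 9.48 in the knockout, a difference of 0.69 from 5xFAD EGFP. Sorl1, the sorting receptor for APP and a risk gene of Alzheimer's disease (chr9:41964720-42124297, minus strand), was at 9.83, 9.56 and 10.2 FPKM in wild type, 9.89 and 8.36 in 5xFAD EGFP and 13.5, 13.6, 13.1 and 12.7 in the knockout, a difference of 0.49. In both, wild type and 5xFAD EGFP overlapped and the knockout lay above them, by 0.45 (SE 0.09) and 0.39 (SE 0.06) against wild type. Eif2ak2 differed by -0.64 and did not pass (adjusted p = 0.0644). The number of calls was unstable: it was 0 without either 5xFAD EGFP library or without knockout replicate 2, 3 or 4, 2 without knockout replicate 1, and 822 when libraries were weighted by their quality. Only 2 libraries define the 5xFAD EGFP level. With either left out the lone library was taken to vary like those of the other groups, so that those 2 counts say little about stability.

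**Figure D5:**
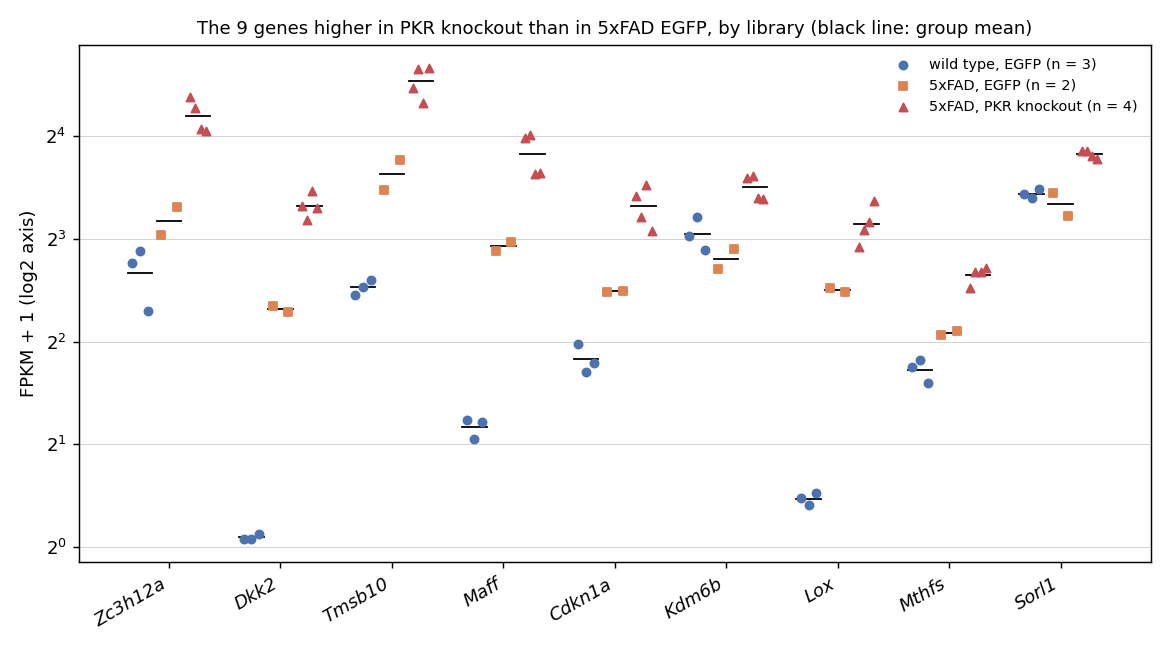
FPKM + 1 on a log2 axis for the 9 genes higher in PKR knockout 5xFAD (triangles, n = 4) than in 5xFAD EGFP (squares, n = 2), with wild type EGFP (circles, n = 3) and black lines at the group means of FPKM + 1. Zc3h12a to Cdkn1a, Lox and Mthfs step up from wild type through 5xFAD EGFP to the knockout, while wild type and 5xFAD EGFP overlap for Kdm6b and Sorl1.

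Genes within 5 Mb of Eif2ak2 on chromosome 17 were listed as a look at the region around the gene named in the knockout label. Of 35 tested, 9 were raised (25.7%, against 17.5% of all genes) and 7 lowered, near the 19.4% of all genes, with a median of -0.06 (4 to 10 raised, 3 to 19 lowered and a median of -0.25 to -0.0015 over the alternatives). Cox7a2l, a respiratory chain assembly factor, was at 27.97, 25.1 and 29.01 FPKM in wild type, 50.9 and 41.6 in 5xFAD EGFP and 52.7, 50.05, 46.7 and 52.95 in the knockout. Rasgrp3 was at 28.7, 26.9 and 22.2 FPKM in wild type, 37.6 and 38.3 in 5xFAD EGFP and 36.9, 46.6, 37.1 and 48.05 in the knockout, and Crim1 at 9.45, 7.19 and 11.7 FPKM in wild type, 5.16 and 4.26 in 5xFAD EGFP and 5.68, 4.37, 5.96 and 4.55 in the knockout. For each the knockout was on the same side of wild type as 5xFAD EGFP, and no gene of this window passed between knockout and 5xFAD EGFP.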

How the data were processed

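Microglia RNA was extracted with TRIzol, depleted of ribosomal RNA and made into stranded total RNA libraries, per the labels' protocols. Bowtie2 2.3.5, HISAT2 2.1.0, featureCounts 1.5.1 and the mm10 build are named in the submitters' processing notes, without their order. The authors deposited 1 table of FPKM per gene for all 13 libraries. Whether counting used strand and how reads matching several genes were treated is not given in the sources used here, so overlapping genes and near-identical copies are uncertain.

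FPKM values summed to between 123352 and 170775 per library. Depth was recovered from the steps between low FPKM values with GENCODE M21 exon lengths for 19394 genes. Low values were nonzero ones under 0.3 as FPKM times exon length in kb. Of these low values, 96.2% to 97.3% lay within 0.02 fragments of a multiple of 0.5. Genes averaging 1 FPKM or more across the 13 libraries were fitted as log2(FPKM + 1) with limma 3.58.1 in R 4.3.3, as 1 model with a mean for each of 4 groups, eBayes with trend and 9 residual degrees of freedom. Adjusted p-values are Benjamini-Hochberg values over all 10817 genes, with a threshold of 0.05. The fit was tested on simulated data in which 200 genes were changed in the knockout group by a log2 of 0.5 or 1.0, up or down. It recovered 56.5% to 92.5% of them, and 3.6% to 8.9% of the calls were false.

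The members and lists were chosen with earlier results of these data known. Genes were named by a fixed rule: Eif2ak2, App and Thy1, the 10 most raised and 10 most lowered genes without overlap, the 3 members of each list with the largest change and the 2 with the highest mean FPKM, and the genes that passed against 5xFAD EGFP. A few genes that the rule would name are not reported here, but stay in the counts and medians of their lists. Other members named are examples chosen after their values were seen. RefSeq promoters of 300 bases were searched for 5 motifs, of which ISRE, CLEAR and NF-kB are described. Replicate numbers are shared between groups, but deviations of same-numbered knockout and wild type libraries correlated at -0.176, 0.577 and 0.028, so the numbers were not taken as pairs. The alternatives were 12 other settings and leaving out each of the 7 libraries in turn.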

Additional observations from a re-analysis of the deposited data

Results flagged for a closer look

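Within the 4 knockout libraries, 187 values were looked at (143 named genes and 44 lists), and in 10 of them 1 library stood apart from the other 3, where chance flags about 1 in 20. Knockout replicate 4 stood apart in mitochondrially encoded genes: mt-Atp8 at 937 FPKM, mt-Co1 at 2733 and mt-Atp6 at 3023, all above the other knockout libraries, and the list's mean log2(FPKM + 1) at 9.89 against 9.23 to 9.33. Its Ndufa1 was low at 13.9 FPKM. Knockout replicate 1 was high for Cox6a1 at 116 FPKM and for the nuclear respiratory chain list at 3.62 against 3.49 to 3.50. Knockout replicate 3 was low for Egr2 at 9.61 FPKM. Knockout replicate 2 was high for the chemokine list at 3.82 against 3.65 to 3.68, and its mean log2(FPKM + 1) of Y-linked genes was 0.0039 against 2.02 to 2.29 in the others. No cause was tested.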

How the results depend on the processing

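Of the 126 named genes that passed, 102 passed with the same sign in all 19 alternatives, 24 lost the call in at least 1 and none reversed. Of the 17 that did not pass, 11 passed in at least 1. The count of 3997 genes against wild type became 1934 with a filter of at least 5 FPKM (585 lowered, 85 of them at least 2-fold) and 6595 on rescaling to the same sum (1174 raised, 5421 lowered, 471 of them at least 2-fold). Lowered genes numbered 3570 with no filter, and those lowered at least 2-fold 526 with a pseudocount of 0.1 and 565 with voom on recovered fragments. The share of calls that were raised was 47.5% as reported, 69.8% with the filter of at least 5 FPKM, 37.3% with no filter, 17.8% on rescaling and 59.0% without wild type replicate 1. Leaving out 1 library gave 3104 to 3846 calls, 1614 to 1936 raised and 1343 to 2160 lowered, with 364 to 422 raised and 193 to 442 lowered at least 2-fold.

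The 9 calls against 5xFAD EGFP became 0 with a pseudocount of 0.1, with no filter, on rescaling, with quantile normalization and with voom, where 1440, 1882, 1736, 1466 and 1476 genes had an unadjusted p under 0.05. They became 25 with the filter of at least 5 FPKM, 46 with median-ratio scaling, 577 with the groups fitted alone, 822 with weights and 0 to 2 without 1 library. Adding a replicate block to the fit, 3870 genes passed against wild type (1819 raised, 2051 lowered, 3564 shared) and 22 against 5xFAD EGFP, and with the block and trends on GC content and length removed 3674 and 29. The numbers do not pair the libraries by the labels.

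Signs reversed only for genes that had not passed. Cst3 turned to -0.140 with quantile normalization, and Lrp1 to -0.372 there and -0.017 on rescaling. Tlr7 turned to -0.0707 on rescaling, -0.122 with quantile normalization and -0.0231 with weights, and ranged from -0.108 to 0.339 without 1 library. Psma6 turned to -0.156 on rescaling, -0.0776 with quantile normalization, -0.0662 with GC and length trends removed and -0.0227 with the block as well. With weights mt-Atp6 turned to 0.0018 and Stmn1 to 0.0012, and without 1 library they ranged from -0.457 to 0.0655 and from -0.604 to 0.0976. The cause was not tested. Depth set a counting error of about 8.45% to 10.3% at 1 FPKM for a gene of 2 kb.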
